A study of Mus musculus with 18 samples.

Results

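Otx2, Pou3f1, Zic2, Zic5, Fst and Fgf5 are genes commonly read as marks of formative and primed pluripotency, the states that follow the naive state as the epiblast matures. The 6 genes were chosen by name, out of 20233 genes named on the arrays, and each was represented by its probe set with the highest mean. They were followed through secondary reprogramming of mouse fibroblasts, a system in which the starting cells descend from induced pluripotent stem cells (iPSC) and carry the reprogramming factors under doxycycline control. The cells of every group were on an Oct4-GFP and Rosa26-M2rtTA background, so that the fluorescent reporter and the doxycycline-dependent transactivator are shared by the controls. Cells taken on days 1, 3, 5, 7, 11 and 15 were in stem cell medium with LIF, doxycycline at 1 µg/ml and vitamin C at 50 µg/ml. Day 18 cells had spent 3 days without either additive. The iPSC group is an established line of the same system, a single line kept in LIF medium with 2i, the pair of inhibitors that block Gsk3 and Mek. Feeder cells may or may not have been present in it, which the labels leave unstated for these arrays. Day 0 cells were fibroblasts at passage 4, derived from mid-gestation embryos made wholly of iPSC by tetraploid complementation, in a feeder medium without LIF or the additives. Comparisons of days 1 to 15 with day 0 therefore differ in medium and vitamin C besides the factors. Day 18 differs from day 0 in medium and in the earlier exposure to both additives, and iPSC differs from day 0 in medium and 2i. Each comparison of iPSC with day 18 holds the addition of 2i. Day 18 differs from day 15 in the loss of both additives and in 3 more days of culture. No group kept the additives to day 18, so these cannot be told apart.

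Otx2 is a homeodomain transcription factor that, with Oct4, moves enhancer use from the naive to the formative pattern. Pou3f1 (Oct6) is a POU factor, and Zic2 and Zic5 are zinc finger factors of a family also active in the early neural plate. Fst encodes follistatin, a secreted protein that binds activin and keeps it from its receptors, and Fgf5 encodes a secreted fibroblast growth factor that is a standard mark of the primed epiblast. In mouse stem cells FGF signalling through Mek and Erk favours the exit from the naive state, and activin and Nodal signalling sustains the primed state. Most of these genes also have roles outside pluripotent cells: follistatin and Fgf5 are made by mesenchymal cells, and the homeodomain, POU and Zic factors act in the nervous system.

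The 18 arrays, 2 per group, gave log2 expression values that the authors had made with RMA. Background was taken as a log2 level of 5.30, the 95th percentile of group means over 1075 olfactory receptor genes. Replicate arrays correlated at r = 0.997 to 0.998 across genes. The pair of day 18 stood apart, with r = 0.993 and 264 genes over 2-fold apart, against 5 to 16 genes in the other groups. In the labelled fibroblasts of day 0 all 11 fibroblast markers were above background, at a mean log2 level of 10.99, and 13 of 20 naive pluripotency genes were under it. In the iPSC group all 20 naive genes were above background, with a mean log2 level of 10.01. The labels do not say whether the arrays of a group came from separate cultures, and the p-values then reflect array-to-array spread alone, which may be technical.

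Promoter sequence is shown for the members with an entry in the RefSeq promoter table of GRCm38.p6, Otx2, Zic5 and Fgf5, as the gene that moved most on the arrays beside a pair that moved little. The other members, Pou3f1, Zic2 and Fst, had none there. Each run gives the 250 bases before the annotated start, 5′ to 3′ on the gene's strand, with CpG dinucleotides in capitals. The first is the most upstream of 4 Otx2 starts, chr14:48667645-48667894 on the minus strand. The Zic5 run lies at chr14:122465659-122465908 on the minus strand and the Fgf5 run at chr5:98253934-98254183 on the plus strand.
Otx2: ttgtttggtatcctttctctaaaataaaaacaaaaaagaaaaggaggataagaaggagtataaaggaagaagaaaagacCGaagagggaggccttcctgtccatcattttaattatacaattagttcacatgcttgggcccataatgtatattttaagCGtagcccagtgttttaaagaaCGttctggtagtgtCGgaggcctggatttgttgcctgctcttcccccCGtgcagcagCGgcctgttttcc
Zic5: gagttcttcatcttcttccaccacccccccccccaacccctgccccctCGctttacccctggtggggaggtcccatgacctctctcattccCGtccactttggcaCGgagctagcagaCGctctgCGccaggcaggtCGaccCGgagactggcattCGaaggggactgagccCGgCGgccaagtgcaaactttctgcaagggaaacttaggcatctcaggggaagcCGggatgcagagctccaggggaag
Fgf5: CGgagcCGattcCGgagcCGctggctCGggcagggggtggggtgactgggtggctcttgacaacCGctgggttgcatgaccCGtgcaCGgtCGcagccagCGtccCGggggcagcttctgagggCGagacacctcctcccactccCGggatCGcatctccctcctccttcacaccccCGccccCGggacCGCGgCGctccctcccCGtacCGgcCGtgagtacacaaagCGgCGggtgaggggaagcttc
The Otx2 run held 6 CpG dinucleotides, the Zic5 run 11 and the Fgf5 run 24, beside a median of 6 over 32851 promoters of the same length. Their GC contents were 42.0%, 62.4% and 70.8% in that order, beside a median of 52.4%. The motifs searched, on both strands, were the octamer ATGCAAAT, present in 1.6% of all promoters, the Otx site TAATCC, in 6.25%, and the AP-1 site TGANTCA, in 6.75%. None of these motifs occurred in the 3 runs above. Of the 4 Otx2 starts, only the third from upstream held a match, an Otx site on the opposite strand that begins 211 bases before the start. It is shown in capitals within 30 bases at chr14:48665303-48665332, read on the minus strand.
Otx2 site: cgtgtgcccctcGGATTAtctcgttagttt
These matches describe letters, not binding. Zic2 and Zic5 are neighbours on chromosome 14 with a single annotated gene, 2610035F20Rik, between them, and Otx2 lies on the same chromosome.

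Over the 9 groups, the members fell into 3 that changed by a large amount, Otx2, Zic2 and Fst, and 3 that stayed within a narrow band, Pou3f1, Zic5 and Fgf5. The range between the highest and lowest group mean was 4.89 on the log2 scale for Otx2, larger than for 99.3% of genes. It was 4.13 for Zic2, larger than for 98.2% of genes, and 3.13 for Fst, larger than for 95.2%. Pou3f1 had a range of 0.66, Fgf5 of 0.66 and Zic5 of 0.55, larger than for 40.2%, 39.8% and 33.0% of genes in that order. All 6 members passed limma's F test over the 9 groups (adjusted p from 2.76e-13 for Zic2 to 0.00758 for Zic5), as did 78.8% of all genes. A gene was called in a comparison where the Benjamini-Hochberg adjusted p of limma was under 0.05 and the log2 difference at least 1 in size. By that rule Otx2, Zic2 and Fst were called in 1 or more of the 36 pairs of groups, and the other 3 members in none. The share of all genes called in at least 1 pair was not counted, so this count describes the members only.

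**Figure D1:**
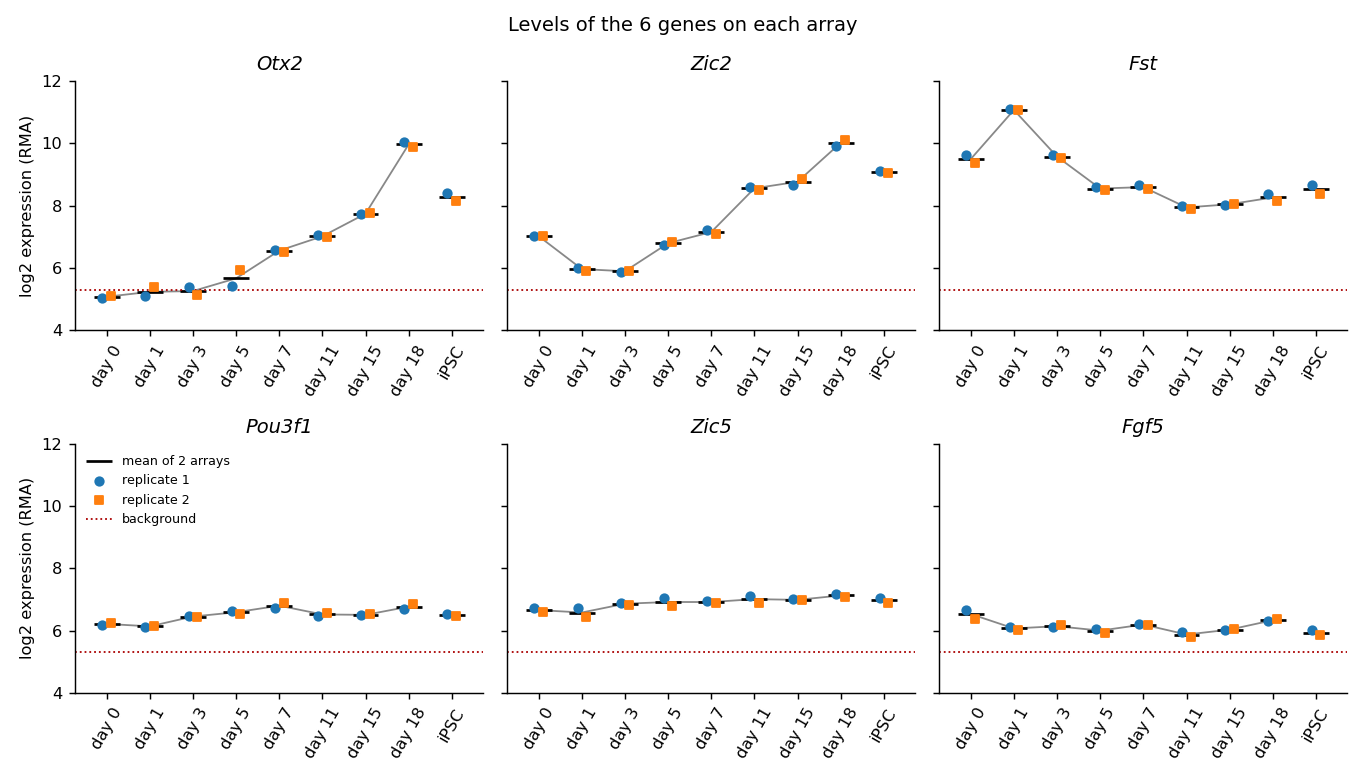
Log2 expression (y axis) of the 6 genes on each of the 18 arrays by group (x axis), with bars for the mean of 2 arrays, a grey line through the sampled days and a dotted line at the background level of 5.30. Otx2 and Zic2 are highest on day 18 and Fst on day 1, while Pou3f1, Zic5 and Fgf5 stay between 5.78 and 7.18.

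Otx2 was under background in fibroblasts and the first days of induction, and then climbed to a peak after the additives were removed. Its log2 levels were 5.03 and 5.11 on day 0, 5.08 and 5.38 on day 1, 5.39 and 5.12 on day 3 and 5.41 and 5.92 on day 5. Later they were 6.58 and 6.52 (day 7), 7.04 and 6.98 (day 11), 7.73 and 7.75 (day 15) and 10.05 and 9.88 (day 18). The iPSC arrays read 8.40 and 8.16. The group means of days 0 to 3 lay under background, and from day 7 on every array lay above all arrays of days 0 to 5. Day 18 stood above every other group with no overlap, and iPSC came next.

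From day 7 on Otx2 was called higher than day 0 in each of the 5 later groups. The log2 difference was 1.48 ± 0.15 (SE, 2 arrays a group) on day 7, and at the next samplings it was 1.94 (day 11), 2.67 (day 15) and 4.89 (day 18). For the iPSC line it was 3.21. Because the day 0 level was under background, the rise is better given as a bound: the day 18 level was at least 25.4-fold and the iPSC level at least 7.9-fold above the background level. Otx2 had covered more than 0.5 of the way between day 0 and iPSC by day 11.

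The largest step of Otx2 between neighbouring groups came from day 15 to day 18, the interval in which doxycycline and vitamin C were withdrawn. Day 18 arrays, at 10.05 and 9.88, were 4.68-fold above the day 15 arrays, at 7.73 and 7.75, a log2 difference of 2.23 ± 0.15 (adjusted p = 3.93e-08). In the iPSC arrays the level was 8.40 and 8.16, which was 3.22-fold lower than on day 18 (log2 difference -1.69 ± 0.15, adjusted p = 1.28e-06). Against day 15 the iPSC level was 0.54 higher on the log2 scale, with an adjusted p of 0.00814, and did not reach the fold limit. Along the order of levels, each neighbouring pair from day 18 down to day 5 had an adjusted p under the threshold, while day 5 and day 3, day 3 and day 1, and day 1 and day 0 did not differ by the test.

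The pattern of a gene called higher on day 18 than on day 0 and on day 15, with iPSC called lower than day 18, was met by Otx2 alone among the members and by 0.712% of all genes. Among 32 further formative and primed genes Utf1, a chromatin-associated factor of pluripotent cells, met it. No gene of the 20 naive genes did. It was also met by Fstl3, a relative of follistatin, and by 1 marker each of the trophoblast (Hand1), primitive endoderm (Gata6) and macrophage (Csf1r) lists. Of the 6 macrophage markers measured, 5 were under background on day 18, so Csf1r does not stand for that list there. The Utf1 arrays read 11.71 and 11.68 on day 18, against 10.04 and 10.49 on day 15, and 10.27 and 10.45 in iPSC.

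All 4 Otx2 probe sets followed this course. The other 3, of which a pair had identical values, correlated with the one used at r = 0.997 to 0.998 over the 18 arrays. Their day 18 minus day 15 differences were 2.15 to 2.22, and their iPSC minus day 18 differences -1.77 to -1.68. They read transcripts of 1 gene and are not replicates.

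**Figure D2:**
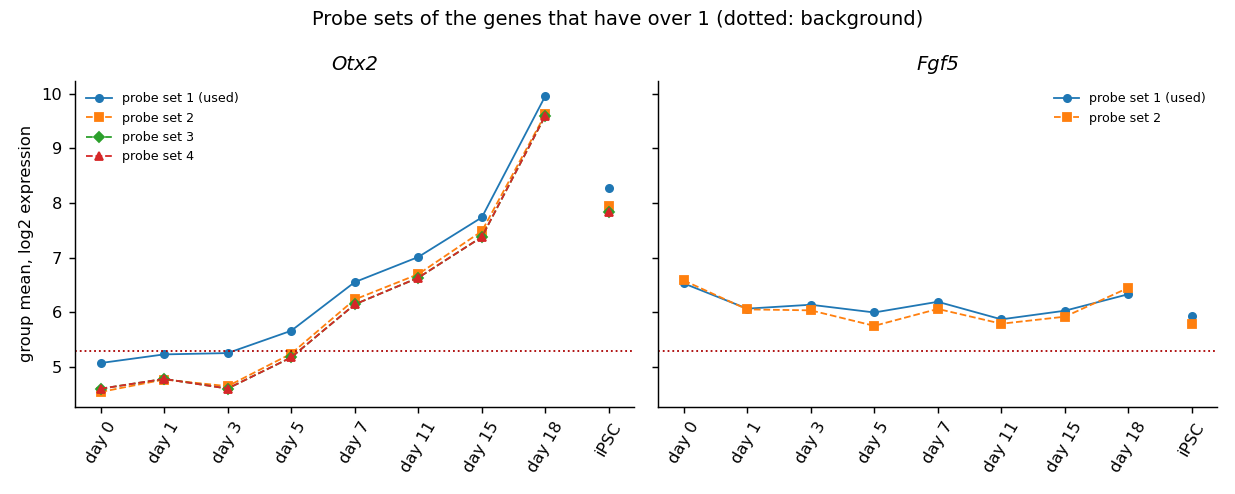
Group mean log2 expression (y axis) of each probe set of the members with more than 1, Otx2 (4) and Fgf5 (2), by group (x axis), with days joined by lines and background dotted. The 4 Otx2 probe sets run parallel with a peak on day 18, and both Fgf5 probe sets are highest on day 0 and next on day 18.

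Zic2 was present in the fibroblasts, fell on the first day of induction and stood higher again from day 5 on, with its peak on day 18. Its log2 levels were 7.01 and 7.02 on day 0, 6.01 and 5.91 on day 1, 5.88 and 5.90 on day 3, 6.74 and 6.84 on day 5 and 7.21 and 7.09 on day 7. Later they were 8.60 and 8.50 (day 11), 8.67 and 8.86 (day 15) and 9.92 and 10.11 (day 18). The line gave 9.11 and 9.06. The arrays of days 1 and 3 lay below all others, and those of day 18 above all others.

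On day 1 Zic2 was 2.08-fold lower than on day 0 (log2 difference -1.06 ± 0.08, adjusted p = 9.46e-08), and on day 3 2.18-fold lower (-1.13). In the same comparisons 7 of 11 fibroblast markers were called lower on day 1 (median -1.86) and 11 of 11 on day 3 (median -3.55). The shares of all genes called lower were 6.54% on day 1 and 8.94% on day 3. The part of fibroblast RNA in the Zic2 values was not tested. Both Zic2 differences stand close to the fold limit, and after a further quantile normalization the day 1 difference was -0.94 and no longer called. Zic2 was also called lower on these days than in iPSC, a transient dip met by 4.76% of all genes. By day 7 the level was back near that of day 0 (log2 difference 0.13, adjusted p = 0.201).

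The main step of Zic2 within induction came between day 7 and day 11, where the level rose 2.65-fold (log2 difference 1.40 ± 0.08). After removal of the additives the day 18 arrays, at 9.92 and 10.11, were 2.38-fold above the day 15 arrays, at 8.67 and 8.86 (1.25 ± 0.08, adjusted p = 4.14e-08). Against day 0, Zic2 was called higher in the last 4 groups, by 1.54 for day 11, 1.75 for day 15, 2.999 for day 18 and 2.07 for iPSC. The iPSC arrays, at 9.11 and 9.06, lay below the day 18 arrays without overlap, by a log2 difference of -0.93 with an adjusted p of 1.54e-06, which is short of the fold limit. Without replicate 1 of day 18 that difference was -1.03 and was called.

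Fst took another course than these transcription factor genes, with a sharp rise on the first day and then a fall below the level of the fibroblasts. Its log2 levels were 9.63 and 9.36 on day 0, 11.09 and 11.06 on day 1, 9.63 and 9.52 on day 3, 8.61 and 8.49 on day 5 and 8.66 and 8.53 on day 7. Later they were 7.98 and 7.90 (day 11), 8.02 and 8.06 (day 15) and 8.37 and 8.15 (day 18). In the iPSC line Fst read 8.66 and 8.38. Day 1 stood above every other group, day 3 overlapped day 0, and all arrays from day 5 on lay below the day 0 arrays.

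On day 1 Fst was 2.98-fold higher than on day 0 (log2 difference 1.58 ± 0.11, adjusted p = 2.55e-08). It was 2.83-fold lower on day 3 than on day 1 (-1.499) and lower again on day 5 than on day 3 (-1.02 ± 0.11), the last of these close to the limit and not called without replicate 1 of day 3 (-0.97), without replicate 2 of day 5 (-0.96) or after a further quantile normalization (-0.99). Against day 0 it was called lower on day 11 (-1.55), day 15 (-1.45) and day 18 (-1.23). The iPSC level was 0.97 lower than that of day 0 on the log2 scale and not called, but it was called after a further quantile normalization (-1.01), with arrays centred on the median (-1.02), without replicate 1 of iPSC (-1.11) and without replicate 2 of day 0 (-1.10). Fst was transiently higher in the sense that it was called higher on day 1 than on day 0 and than in iPSC, as were 6.76% of all genes on a day of induction.

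**Figure D3:**
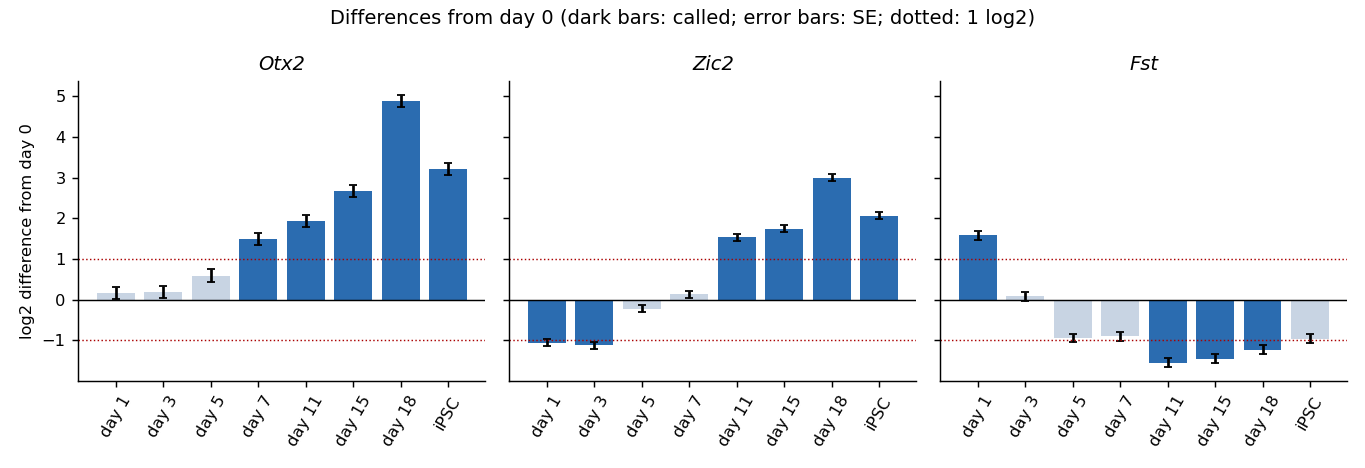
Log2 difference from day 0 (y axis) of Otx2, Zic2 and Fst on each later day and in iPSC (x axis), with SE bars, dark bars where the difference was called and dotted lines at 1 log2 in either direction. Otx2 bars are dark from day 7, Zic2 bars are negative on days 1 and 3 and positive from day 11, and Fst bars are positive on day 1 and negative from day 5 on.

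Pou3f1, Zic5 and Fgf5 were above background on all arrays and moved by less than 1 log2 throughout. The background level comes from the probe sets of other genes, so signals this flat cannot be told apart from background particular to their own probes. Pou3f1 had group means from 6.13 on day 1 to 6.80 on day 7. Its arrays read 6.72 and 6.87 on day 7, against 6.17 and 6.25 on day 0, a log2 difference of 0.59 ± 0.08 with an adjusted p of 1.5e-05. The day 18 arrays, at 6.68 and 6.86, also lay above those of day 0 (0.55 ± 0.08), and iPSC arrays read 6.52 and 6.47. These arrays did not overlap those of day 0, but the sizes stayed under the fold limit. With 2 arrays a group such separation says little. Pou3f1 arrays of day 1 did not overlap those of day 0 either, at a log2 difference of -0.08 (limma adjusted p = 0.463).

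Zic5 had group means from 6.58 on day 1 to 7.13 on day 18. Its day 18 arrays, at 7.18 and 7.08, were 0.47 ± 0.11 above the day 0 arrays, at 6.73 and 6.59, on the log2 scale (adjusted p = 0.00205). Day 18 minus day 15 was 0.14 with an adjusted p of 0.328, and iPSC minus day 18 was -0.16 with an adjusted p of 0.309. Neither step passed the test, and the neighbouring Zic2 had 1.25 and -0.93 in the same steps. Along the order of its levels no neighbouring pair of groups had an adjusted p under the threshold.

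Fgf5 had its highest mean in the fibroblasts, with arrays at 6.67 and 6.39, and had group means of 5.87 to 6.33 in all later groups. Day 18, with the next highest mean, did not differ from day 0 by limma's test (log2 difference -0.20, adjusted p = 0.105). The lowest mean was that of day 11, with arrays at 5.97 and 5.78, which was 0.66 ± 0.10 below day 0 on the log2 scale (adjusted p = 4.41e-05). Day 18 arrays, at 6.31 and 6.36, lay above those of day 15, at 6.002 and 6.057 (0.30 ± 0.10, adjusted p = 0.0217), and iPSC arrays, at 6.02 and 5.85, lay below those of day 18 (-0.40 ± 0.10, adjusted p = 0.00581). The second Fgf5 probe set gave 0.53 and -0.66 for the same steps and correlated with the first at r = 0.942 over the 18 arrays.

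Counted by comparison, 1 member was called higher and 1 lower on day 1 than on day 0, beside 7.62% and 6.54% of all genes. On day 3 the count was 0 higher and 1 lower (8.68% and 8.94% of genes), on day 5 no member in either direction (9.5% and 9.75%) and on day 7 1 higher and 0 lower (10.1% and 9.85%). On day 11 it was 2 higher and 1 lower (9.89% and 9.64%), with the same counts on day 15 (10% and 8.83%) and on day 18 (8.87% and 8.64%). In iPSC 2 were higher than on day 0 and 0 lower, beside 10.1% and 9.79%. The members' median log2 difference from day 0 was 0.51 on day 18 and 0.30 in iPSC, beside -0.03 and 0.01 for all genes. With 6 members these shares are coarse, and each call is that of Otx2, Zic2 or Fst.

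In steps between neighbouring groups, Fst was the only member called from day 1 to day 3 (lower, as were 2.31% of genes) and from day 3 to day 5 (lower, 0.361%), and Zic2 the only one from day 7 to day 11 (higher, 1.83%). No member was called between days 5 and 7 (1.02% of genes in either direction) or between days 11 and 15 (1.91%). On day 18 Otx2 and Zic2 were called higher than on day 15, beside 4.67% of genes, and no member lower (4.07%). In iPSC Otx2 was called lower than on day 18, beside 2.84% of genes, and none higher (1.57%). The day 15 level of every member was within 1 log2 of the iPSC level, so no member was called between iPSC and day 15, beside 11% of all genes.

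The list of 32 further formative and primed genes was mixed. On day 18, 12 of them were called higher and 4 lower than on day 0, with a median log2 difference of 0.68 beside -0.03 for all genes. The largest of these were Utf1 (6.67), Pou5f1 (6.17), which encodes Oct4 and is also a transgene here and Sall4 (5.23), a zinc finger partner of Oct4. Against day 15, 4 were called higher on day 18, among them Lefty1 (1.99), a Nodal antagonist, and 7 lower, among them Sfrp2 (-2.05), a secreted Wnt inhibitor, and Fgf15 (-1.96). The count of 7 was 3 without replicate 2 of day 18 and 4 without replicate 2 of day 15. In iPSC, 1 gene was called higher than on day 18, Lefty2 (1.37), or 2 without replicate 2 of day 18, and 5 lower, with a median of -0.14 beside 0.05 for all genes. The genes lower there were the DNA methyltransferase genes Dnmt3b (-1.33) and Dnmt3a (-1.10), Utf1 (-1.34), Grhl2 (-1.57), an epithelial transcription factor gene, and Spry4 (-1.59), an inhibitor of FGF signalling. The primed and mesendoderm genes T and Cer1 were under background in every group. Of all genes, 8.87% were called higher and 8.64% lower on day 18 than on day 0. Against day 15 the shares on day 18 were 4.67% higher and 4.07% lower. In iPSC 1.57% of all genes were called higher and 2.84% lower than on day 18.

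Naive genes had another balance in the same steps, for which the shares of all genes called are those just given. Of 20, 18 were called higher on day 18 than on day 0 (median log2 difference 4.02), and 14 were called higher and 1 lower on day 18 than on day 15 (median 1.36 beside -0.06 for all genes). The lower gene was Klf4 (-1.21), also a transgene here, and 2 were lower without replicate 2 of day 18 or of day 15. In iPSC 5 were called higher than on day 18 and none lower, with a median of 0.55. The largest of these were Tdh (1.92), the threonine dehydrogenase of mouse stem cells, Nr5a2 (1.45), Tcl1 (1.41) and Zfp42 (1.33). For the naive regulator Esrrb the iPSC minus day 18 difference was 0.72 and for Nanog 0.51, beside -1.69 for Otx2 and -0.93 for Zic2. The iPSC arrays are read against the same day 18 arrays in all these values, and the difference between the lists was not tested.

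**Figure D4:**
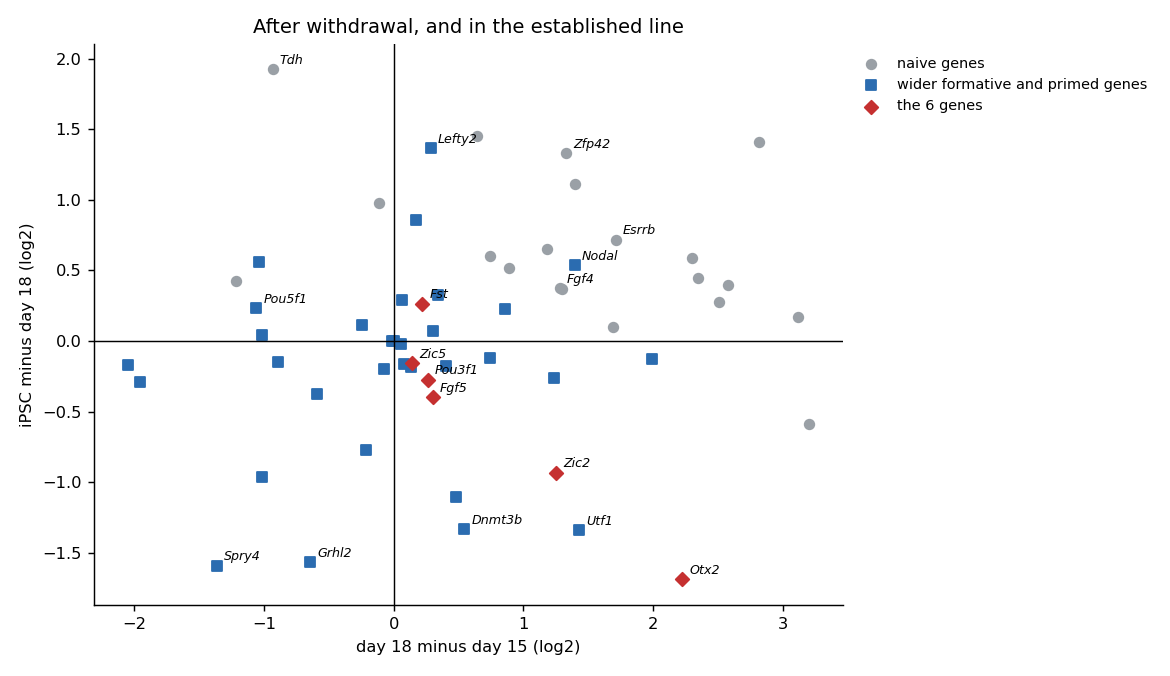
Each point is a gene, placed by its log2 difference of day 18 minus day 15 (x axis) and of iPSC minus day 18 (y axis), for the 6 genes, 32 wider formative and primed genes and 20 naive genes. The 2 axes share the day 18 arrays. Otx2 lies at 2.23 and -1.69 and Zic2 at 1.25 and -0.93, in the lower right with Utf1 and Dnmt3b, while most naive genes lie above the horizontal line.

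Relatives of the members by family did not share a common course. Zic1 fell by 1.87 on the log2 scale on day 18 relative to day 0. Pou3f4 was called higher on day 5 than on day 0 (2.95), with arrays at 10.01 and 9.89, against 7.09 and 6.91, and on day 7 (2.89). In iPSC it was under background and called lower than on day 0 (-1.81). Pou2f1 was higher on day 18 than on day 0 (1.66). Of the 14 relatives, 5 were under background in every group: Crx, an Otx relative, Pou3f2, Zic4, Fstl4 and Fstl5. Over all 14, 4 were called higher and 3 lower on day 18 than on day 0, with a median of 0.02. The shares of all genes were 8.87% higher and 8.64% lower.

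**Figure D5:**
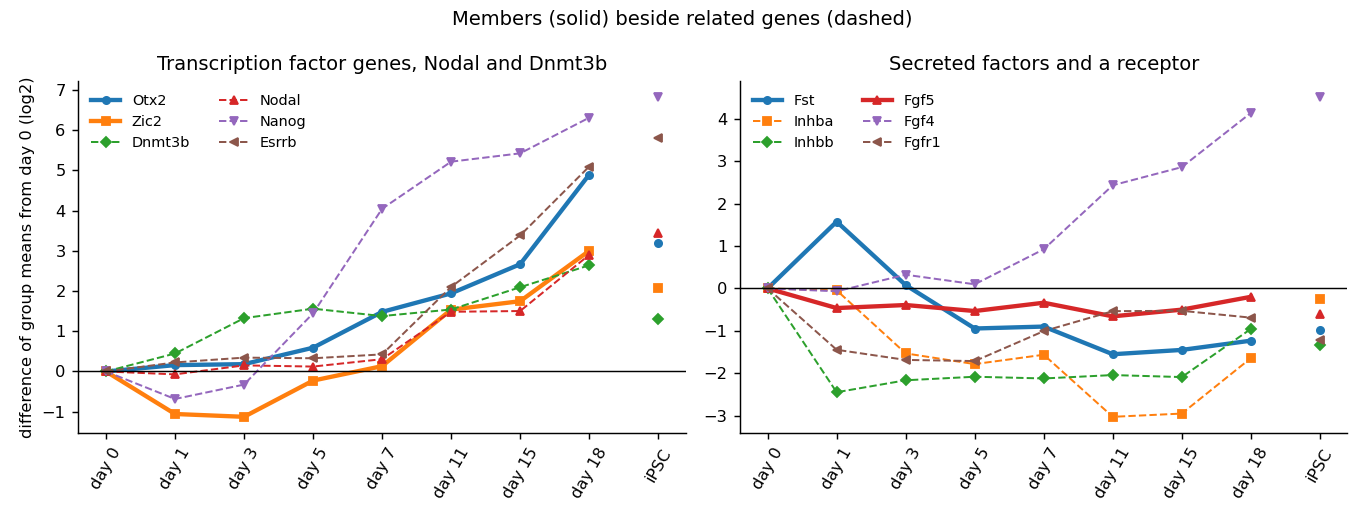
Difference of the group mean from day 0 on the log2 scale (y axis) by group (x axis), with members as solid lines and related genes as dashed lines, days joined and iPSC apart. Otx2, Zic2 and Dnmt3b are lower in iPSC than on day 18, while Nanog, Esrrb and Nodal are higher. Fst is above the day 0 level on day 1, when Inhba is near its own day 0 level and Inhbb is below its own.

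Among 23 genes of activin and BMP signalling, 1 was called higher on day 1 than on day 0 and 3 lower, beside 7.62% and 6.54% of all genes. The higher one was the activin receptor gene Acvr2b (1.01). Of the lower ones, Inhbb, which encodes an activin subunit, read 5.86 and 5.65 on day 1, against 8.26 and 8.15 on day 0 (log2 difference -2.45), and Bmp4 read 6.64 and 6.55, against 9.96 and 9.96 (-3.36). Inhba, the other activin subunit, was 10.62 and 10.67 on day 1, against 10.72 and 10.66 on day 0, and its difference of -0.04 did not pass the test (adjusted p = 0.862). The other gene called lower was Acvr2a, an activin receptor gene, at 8.08 and 8.02 on day 1, against 9.34 and 9.36 on day 0 (-1.30). Inhba then fell to 7.59 and 7.73 on day 11, when Fst had its lowest mean.

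After removal of the additives 4.67% of all genes were called higher on day 18 than on day 15, and 4.07% lower. Of the 23 genes, 8 were called higher and none lower, with a median of 0.24. They included Fstl3 (2.12), a relative of follistatin, Lefty1 (1.99), Bmp7 (1.60) and Tdgf1 (1.57), a Nodal co-receptor. Nodal read 8.51 and 8.48 on day 18, against 7.16 and 7.04 on day 15 (1.40). Fst itself was 0.22 higher on day 18 than on day 15, with an adjusted p of 0.126. In iPSC Inhba (1.40) and Lefty2 (1.37) were called higher than on day 18 and Fstl3 lower (-1.20), and Fst was 0.26 higher with an adjusted p of 0.079.

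Of all genes, 2.84% were called lower in iPSC than on day 18 and 1.57% higher. For FGF signalling, 5 of 22 genes were called lower and 0 higher, with a median of -0.31 beside 0.05 for all genes. These include genes induced by Erk activity or feeding back on it. Fos read 6.19 and 6.01 in iPSC, against 9.29 and 8.85 on day 18 (-2.97). Egr1 read 8.28 and 8.18 in iPSC, against 11.37 and 10.74 on day 18 (-2.83), and Dusp6, an Erk phosphatase gene, 6.65 and 6.83, against 9.01 and 8.44 (-1.99). The iPSC medium contained the Mek inhibitor, and its part in the values of Otx2 and Zic2 was not tested. From day 15 to day 18, when no inhibitor was added, 2 of the 22 were called higher and 4 lower, or 2 lower without replicate 2 of day 18. The shares of all genes in that step were 4.67% higher and 4.07% lower. Fgf4, the FGF of naive cells, was 1.28 higher on day 18 than on day 15, while Fgf5 differed by 0.30.

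In a bulk sample, fewer cells that express a gene and less RNA per cell cannot be told apart. Markers of other cells moved in several of the steps above, where the shares of all genes called are given. The fibroblast mean was 8.73 and 8.75 on day 1 and 7.69 and 7.59 on day 3, against 10.98 and 10.9998 on day 0, and 6.88 and 6.94 on day 11, when Fgf5 had its lowest mean. All 11 markers were called lower than on day 0 on each day from day 3 to day 18. The mean log2 level of the 11 fibroblast markers was 8.53 and 7.63 on day 18, against 6.42 and 6.42 on day 15, with 8 called higher and none lower, and 1 marker, Lum, was under background on day 18. In that comparison of day 18 with day 15 the log2 difference was 1.31 for Inhba and 1.14 for Inhbb, both called, 0.30 for Fgf5 and 0.22 for Fst, neither called. In iPSC the fibroblast mean was 9.07 and 8.86, with all 11 above background and 9 called higher than on day 15. The iPSC minus day 15 difference was 2.71 for Inhba, which was called, and 0.76 for Inhbb, 0.48 for Fst and -0.09 for Fgf5, which were not. Against day 18, 5 fibroblast markers were called higher in iPSC and 1 lower, with a median of 0.67. In that comparison the log2 difference was -1.69 for Otx2 and -0.93 for Zic2. The part of fibroblast RNA in the levels of any of these genes was not tested.

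The 15 neural markers had a mean log2 level of 6.57 and 6.37 on day 18, against 6.99 and 7.06 on day 15, with 0 called higher and 5 lower, when Otx2 and Zic2 rose. They had their highest mean on day 7, at 7.299 and 7.345, against 6.29 on both day 0 arrays, with 5 called higher and 1 lower, and day 7 was also the first day on which Otx2 was called higher than on day 0. Neurod1, Dcx and Gfap, which mark neurons and astrocytes, were under background in every group. The 11 trophoblast markers stood at 8.49 and 8.75 on day 18, against 8.24 and 8.20 on day 15, and at 6.44 and 6.41 in iPSC, with 6 called lower in iPSC than on day 18 and none higher. The 9 primitive endoderm markers had means of 6.76 and 6.90 on day 18, against 6.18 and 6.11 on day 15, with 2 called higher and none lower, and of 6.46 and 6.40 in iPSC, with none called higher than on day 18 and 2 lower. The part of neural, trophoblast or primitive endoderm RNA in the levels of Otx2 and Zic2 was not tested. On day 1, when Fst peaked, 6 macrophage markers had a mean level of 7.07 and 7.27, against 7.08 and 6.94 on day 0, and 1 of them, Itgam, was called higher. Others went the other way without being called. Adgre1 had a mean of 5.51 on day 1, against 6.11 on day 0, and Csf1r 6.70, against 7.22. The part of macrophage RNA in the Fst level was not tested.

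Among 8236 genes above background in at least 1 group and with a range of at least 1 log2, the genes whose 9 group means followed each member most closely were found by Pearson's r. For Otx2 these were Rhpn2 (r = 0.98), Atg13 and Phyhipl, and the most opposite was Gyg (-0.99). Zic2 was followed by Phc1 (0.99), Kdm6a and Npepps, with Rap2a most opposite (-0.99). Phc1, a Polycomb group gene, had group means of 7.74 on day 1 and 10.94 on day 18, against 8.59 on day 0. Fst was followed by Itgam (0.99), Dock2 and Mcfd2, with Gtdc1 (-0.98), Tmem94 and Tet2 (-0.97) most opposite. Itgam, a myeloid integrin gene, was above background on days 0, 1 and 3 only, with group means of 5.40, 6.62 and 5.40.

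Fgf5 was followed by Ednrb (0.94), Fgfr2 (0.90) and Tnfaip2, with Lin9 most opposite. Ednrb had group means of 8.72 (day 0), 5.12 (day 15), 7.26 (day 18) and 5.06 (iPSC). Pou3f1 was followed by Catsperz (0.91), Tmem170b and Ypel1, and Zic5 by Vps13b (0.97), Rmnd5a and Lrba. Among the members, Otx2 and Zic2 had r = 0.95, Zic2 and Zic5 0.78, Pou3f1 and Zic5 0.85, and Fst and Zic5 -0.89, each over 9 group means that share the same arrays. Fgf5 was not close to any other member, with r from -0.29 to 0.25. With 9 points and 8236 genes searched, high values of r are a description of shape.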

How the data were processed

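Total RNA of 18 mouse samples was hybridised to Affymetrix arrays. The authors deposited log2 values from RMA, as the submitters' processing notes name it. Version, chip definition and genome build: not given in the sources used here. RMA equalises the distributions of the arrays, which would hide a shift of most genes. Of 29643 probe sets, 27260 matched a gene of the RefSeq table (GRCm38.p6, also the source of the promoters) by unversioned accession, giving 20233 genes. The probe set with the highest mean stood for a gene.

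limma (version 3.58.1, R 4.3.3) fitted a mean for each group over all arrays (9 residual degrees of freedom, prior 4.25), with Benjamini-Hochberg adjustment over all genes within a comparison. Errors are SEs of that fit (median 0.0976), which pools the spread and so understates it for genes that varied on day 18. Relative to day 0 the median of all genes was 0.11 on day 3 and 0.125 on day 5. The fit was tested on simulated data. No strong pairing of arrays by replicate number was seen. Same-numbered deviations correlated at -0.189 to 0.149 over 36 pairs of groups, with 6 over 0.1. Pairing that touched few genes or had a small effect would not show in these values.

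Members and lists were chosen with earlier results of these data known. One related gene is not reported here. Named besides the members were a set of related genes, up to 4 genes a list with the largest called change, and up to 3 genes most alike or most opposite to a member. Dnmt3a was named after its value was seen. Alternatives covered the probe set rule, normalization, prior, filter, weights, fold limit, block and arrays left out. The number of arrays limits the precision.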

Additional observations from a re-analysis of the deposited data

How the results depend on the processing

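Over 50 member differences and 27 alternative settings, 1308 of 1342 values kept their direction and their side of the call, 6 lost the call, 28 gained it and 0 changed direction. The 50 were those called or above a minimum size, and smaller differences, which could change direction more readily, were left out. Of the 1342 values, 900 came from leaving out 1 array, which moves only the comparisons that involve its group. The count of 0 was therefore largely set by these choices. Without a minimum fold change, member calls against day 0 numbered 38 in place of 15, calls against the group before 23 in place of 8, calls of iPSC against days 1 to 15 20 in place of 11, and the Zic2 difference of iPSC and day 18, -0.93, was called. Shares of all genes without the fold limit were not counted, and 78.8% of all genes passed the F test. The higher counts are therefore not a result about the members. With a further quantile normalization the Zic2 difference of day 1 and day 0 was -0.94 and not called. With each array left out in turn, the calls numbered 15 to 18 against day 0, 7 to 9 against the group before and 10 to 11 for iPSC against days 1 to 15, and all 6 members passed the F test; the Zic2 difference of iPSC and day 18 ranged from -1.03 to -0.84 and that of day 1 and day 0 from -1.11 to -1.01. Fst on day 5 relative to day 0 was -1.002 with a further quantile normalization, -1.08 without replicate 2 of day 0 and -1.01 without replicate 1 of day 5, and was called under each. Fst of iPSC relative to day 3, -1.05, was not called without replicate 1 of day 3 (-0.99) or replicate 2 of iPSC (-0.91). Otx2 on day 7 relative to day 5, 0.89, was 1.15 and called without replicate 2 of day 5. With the replicate number as a block, no member call changed (0), and 3543 genes were called on day 18 relative to day 0, as without it (3543). Where a group kept 1 array, that array was assumed to vary like the other groups. Genes at or under the background level, such as Otx2 on days 0 to 3, have only a bound there.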
